A study of Homo sapiens with 5 samples.

Results

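Cadherins and the factors of the epithelial-mesenchymal transition (EMT) were examined in differentiated human embryonic stem cells (hESC) that carried wt or mutant miR-122. The 10 genes were CDH1 and EPCAM on the epithelial side, and CDH2, CDH11, VIM, SNAI1, SNAI2, TWIST1, ZEB1 and ZEB2 on the mesenchymal side. All probe sets assigned to one of these symbols were taken, which gave 15 of the 22215 probe sets tested and 10 of the 11963 genes with a probe set of their own. The cells were of the established line HES2, kept on foreskin feeder cells with bFGF and then left to differentiate without feeders or bFGF for 2 weeks. Both groups carried a lentiviral vector with a red fluorescent reporter, in which the constitutive H1 promoter drove either wt miR-122 (2 arrays) or a control whose seed was mutated (3 arrays). Both groups were thus transduced, and neither untransduced nor undifferentiated cells were on these arrays. The comparison asked how a liver miRNA changed the mRNA profile of hESC during spontaneous differentiation.

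Epithelial cells hold together through E-cadherin, which CDH1 encodes, whereas mesenchymal cells express other cadherins and the intermediate filament vimentin. SNAI1, SNAI2, TWIST1, ZEB1 and ZEB2 are transcription factors known as repressors of CDH1 and drivers of EMT, a step that cells pass through in gastrulation and neural crest formation. Undifferentiated hESC are epithelial and express CDH1 and EPCAM. The miRNAs of the miR-200 family are well known repressors of ZEB1 and ZEB2.

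The mature sequence of the introduced miRNA is shown with those of a pair of miR-200 miRNAs, because a miRNA recognizes its targets mainly through its seed (bases 2 to 8, in capitals). The sequences are those of RefSeq on GRCh38.p14, where miR-122 lies at chr18:58451088-58451109, plus strand. The array measures mRNA, and the levels of these miRNAs were not analysed here.
hsa-miR-122-5p: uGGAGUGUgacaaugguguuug
hsa-miR-200a-3p: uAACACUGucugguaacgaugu
hsa-miR-200b-3p: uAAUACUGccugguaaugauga
The seed of miR-141 is that of miR-200a, and miR-200c and miR-429 share that of miR-200b. The seed of miR-122 is neither of these, but whether the member mRNAs hold sites for it was not tested.

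The epithelial members were at much the same level with wt and with mutant miR-122, whereas several mesenchymal members had lower means with wt miR-122. The largest differences on the mesenchymal side were those of CDH11 (log2 difference -0.72), SNAI2 (-0.52) and ZEB2 (-0.52), which correspond to 60.8%, 69.7% and 69.8% of the level in mutant miR-122-expressing cells. SNAI1 and TWIST1 went the other way, with log2 differences of 0.19 and 0.20. In limma, 0 of the 15 probe sets were higher and 0 lower at an adjusted p under 0.05, the closest being that of ZEB2. Over all probe sets, 0.189% were called lower and 0.194% higher by this rule. At an unadjusted p under 0.05, limma gave 8 of the 15 lower and 0 higher, where 6.37% of all probe sets were lower and 8.06% higher. The methods' t-test gave 3 lower and 0 higher at the study's unadjusted threshold, where 3.93% of all probe sets were lower and 6.98% higher, and 0 after adjustment, members or others. On 8 of the 15 both wt arrays lay below all mutant arrays, as on 12.5% of all probe sets, and on 1 they lay above, as on 20.3%. By either measure the 8 probe sets belong to 6 genes (CDH2, CDH11, VIM, SNAI2, ZEB1 and ZEB2), so they are not independent of each other. On the probe set of highest mean for each gene, 4 of the 10 genes were lower and 0 higher at an unadjusted p under 0.05 in limma. Over all genes 6.87% were lower and 8.84% higher. On these probe sets both wt arrays lay below all mutant arrays for 5 genes and above for 1, as for 1602 and 2572 of all 11963 genes.

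**Figure D1:**
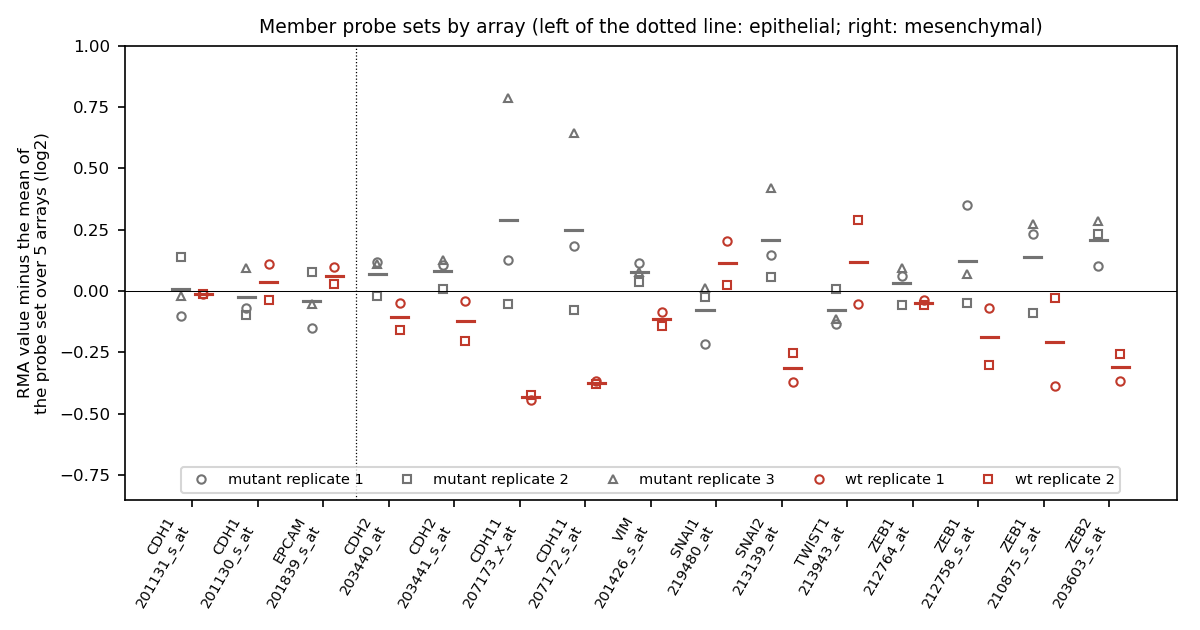
RMA value of each member probe set on each array, minus the mean of that probe set over the 5 arrays (log2). Symbols are single arrays, grey for mutant and red for wt miR-122, and horizontal bars are group means. For CDH11, SNAI2 and ZEB2 both wt arrays lie clearly below the 3 mutant arrays, whereas for CDH1 and EPCAM the groups overlap.

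The arrays resembled each other closely, with correlations across probe sets of 0.995 to 0.997 for all pairs and array medians of 6.32 to 6.36. A log2 difference is the mean of the wt arrays minus the mean of the mutant arrays, and its standard error (SE), 95% interval and adjusted p are those of limma. Each gene was represented by its brightest probe set, judged by the mean of all arrays. The RNA came from whole cultures, so that fewer cells of a type and less RNA per cell cannot be told apart. Arrays have no counts, and their number limits the precision. Probe sets whose names end in _s_at or _x_at can match several transcripts, and CDH1, EPCAM, CDH11, VIM and ZEB2 were measured by such probe sets alone.

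CDH1, the adhesion molecule of epithelial junctions, was bright, with a mean level of 201131_s_at above that of 98.2% of probe sets. It read 11.46, 11.70 and 11.54 on the mutant arrays and 11.55 on each wt array. The wt values lay inside the range of the mutant values. This left a log2 difference of -0.02 (SE 0.0902, 95% interval -0.23 to 0.19, adjusted p = 0.946 from limma). On the dimmer probe set 201130_s_at, the difference was 0.06 (95% interval -0.15 to 0.27), with overlapping groups.

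EPCAM, a surface glycoprotein of epithelia and of undifferentiated hESC, read 10.91, 11.14 and 11.01 on the mutant arrays and 11.16 and 11.09 on the wt arrays. Its groups overlapped, since mutant replicate 2 lay between the wt arrays. The log2 difference was 0.10 (SE 0.0892, 95% interval -0.10 to 0.31, adjusted p = 0.642 from limma). It was 0.05 without mutant replicate 1 and 0.16 without mutant replicate 2. Differences inside these intervals, in either direction, could not be resolved with 5 arrays.

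CDH2 encodes N-cadherin, the cadherin of neural and many mesenchymal cells. Its probe set 203440_at read 10.79, 10.65 and 10.78 on the mutant arrays and 10.62 and 10.51 on the wt arrays. The groups did not overlap, but the gap between them was only 0.03. Their means gave a log2 difference of -0.18 (SE 0.0827, 95% interval -0.37 to 0.02, adjusted p = 0.387 from limma), and the dimmer 203441_s_at gave -0.21 (adjusted p = 0.321), also without overlap. Without wt replicate 2 these were -0.12 and -0.13.

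CDH11, a type II cadherin of osteoblasts and other mesenchymal cells, had the largest difference of the members. On 207173_x_at it read 9.71, 9.53 and 10.37 on the mutant arrays and 9.14 and 9.16 on the wt arrays. Mutant replicate 3 stood above the others, and the wt arrays were nearly equal. The resulting log2 difference was -0.72 (SE 0.215, 95% interval -1.22 to -0.22, adjusted p = 0.199 from limma). The mutant group varied more than in any other member probe set, with an SD of 0.44. The other probe set, 207172_s_at, read 8.82, 8.56 and 9.28 against 8.27 and 8.26, which gave -0.62 (SE 0.181, adjusted p = 0.19). Without mutant replicate 3 the difference on 207173_x_at was -0.47 (adjusted p = 0.132), so that the size of the difference depended on this array. Its sign could not change, since both wt arrays lay below all mutant arrays.

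VIM, which encodes vimentin, was the brightest member, above 99.6% of probe sets. It read 13.27, 13.19 and 13.23 on the mutant arrays and 13.07 and 13.01 on the wt arrays. The groups were apart and narrow, with an SD of 0.04 in each. The log2 difference was nevertheless small, -0.19 (SE 0.0738, 95% interval -0.36 to -0.02, adjusted p = 0.3 from limma), or 87.7% of the level in mutant miR-122-expressing cells.

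**Figure D2:**
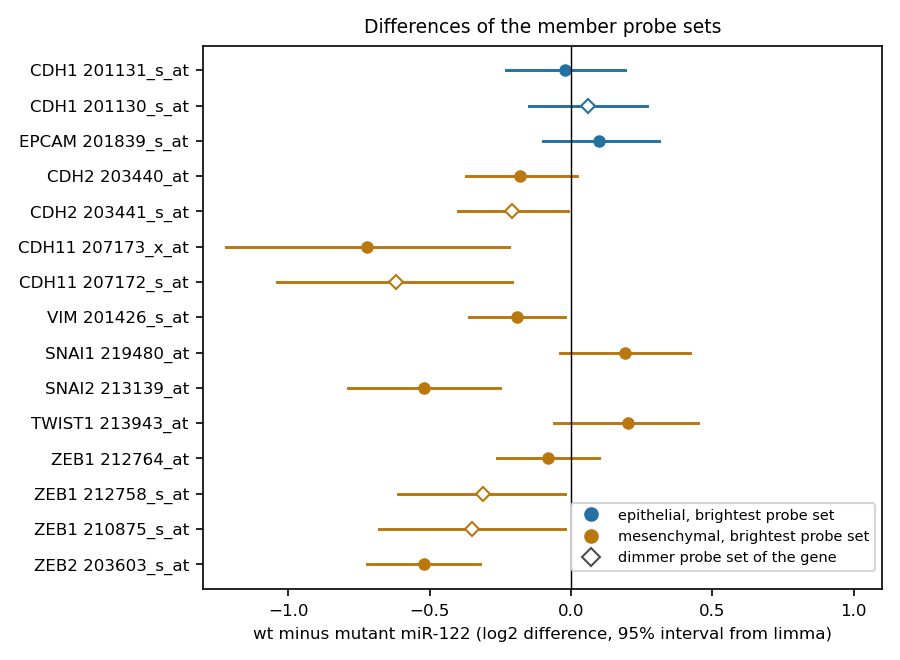
Log2 difference between wt and mutant miR-122-expressing cells for each member probe set, with its 95% interval from limma (2 wt and 3 mutant arrays). Filled circles are the brightest probe set of a gene and open diamonds its dimmer ones. The intervals of CDH1, EPCAM, SNAI1 and TWIST1 include 0, and those of CDH11, SNAI2, VIM and ZEB2 lie below it before adjustment for the number of probe sets.

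The transcription factors differed in direction among themselves. SNAI2, the zinc finger factor also known as Slug, was bright, and read 9.86, 9.77 and 10.13 on the mutant arrays and 9.34 and 9.46 on the wt arrays. All mutant arrays lay above both wt arrays, by a gap of 0.313. The mutant mean was 9.92 ± 0.19 (SD, n = 3) and the wt mean 9.40 ± 0.08 (SD, n = 2), with a log2 difference of -0.52 (SE 0.115, 95% interval -0.79 to -0.25, adjusted p = 0.114 from limma). With an intensity trend and a robust prior the adjusted p from limma was 0.046, in a fit that called 0.824% of all probe sets lower, so that the call turned on how the variance was estimated. SNAI1, its relative, is an early inducer of EMT in gastrulation, and was dim, above 32.0% of probe sets. It read 4.78, 4.97 and 5.01 on the mutant arrays and 5.20 and 5.02 on the wt arrays. Here the wt arrays lay above the mutant arrays, although by a gap of 0.013 only. They differed by 0.19 on the log2 scale (SE 0.0988, 95% interval -0.04 to 0.42, adjusted p = 0.428 from limma). Without wt replicate 1 the difference was 0.11, without mutant replicate 1 it was 0.12, and without wt replicate 2 it was 0.28. Whether SNAI1 and SNAI2 responded differently was not tested.

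ZEB2, a zinc finger repressor with a role in neural crest, had the smallest adjusted p among the members. It read 5.93, 6.06 and 6.11 on the mutant arrays and 5.46 and 5.57 on the wt arrays. The groups were tight and separated by a gap of 0.358, the means being 6.03 ± 0.09 (SD, n = 3) and 5.51 ± 0.08 (SD, n = 2). This was a log2 difference of -0.52 (SE 0.0863, 95% interval -0.72 to -0.32, adjusted p = 0.0588 from limma). With the intensity trend and robust prior the adjusted p from limma was 0.0428. ZEB2 was represented by 1 probe set below the median level of the array, and leaving out single arrays moved its difference little, between -0.57 and -0.46.

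ZEB1, the relative of ZEB2, was measured by 3 probe sets that disagreed in size. On the brightest, 212764_at, it read 7.54, 7.42 and 7.57 on the mutant arrays and 7.44 and 7.42 on the wt arrays. These groups overlapped, and the log2 difference was -0.08 (SE 0.0787, 95% interval -0.26 to 0.10, adjusted p = 0.688 from limma). The dimmer 212758_s_at read 6.88, 6.48 and 6.60 against 6.46 and 6.23, which was -0.31 on the log2 scale (adjusted p = 0.323), with the wt arrays just below the mutant arrays. On 210875_s_at, which was brighter than 12.6% of probe sets, the log2 difference was -0.35 (adjusted p = 0.317) and the groups overlapped. Without wt replicate 1 the last of these was -0.17, and without wt replicate 2 it was -0.53. That of 212758_s_at was -0.20 without mutant replicate 1 or without wt replicate 2. That of 212764_at was -0.05 without mutant replicate 3 and -0.12 without mutant replicate 2. The brightest probe sets of ZEB1 and ZEB2 thus gave unlike values, but the difference between the genes was not tested.

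TWIST1, a basic helix-loop-helix factor of mesoderm and cranial mesenchyme, read 5.80, 5.94 and 5.82 on the mutant arrays and 5.88 and 6.22 on the wt arrays. The groups overlapped and the higher wt mean came from wt replicate 2. Between the means the log2 difference was 0.20 (SE 0.11, 95% interval -0.06 to 0.45, adjusted p = 0.465 from limma). It was 0.03 without wt replicate 2 and 0.36 without wt replicate 1.

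Set against each other, the mesenchymal members had the lower median. Over the 2 epithelial genes the median log2 difference was 0.04, but it was -0.01 without mutant replicate 1 and 0.11 without mutant replicate 2, so that its sign turned on 1 array. Over the 8 mesenchymal genes it was -0.18, with 6 means lower and 2 higher, and -0.23 to -0.14 with single arrays left out. The median over all 11963 genes was 0.03, with 41.6% of means lower, and the middle of the distribution lay between -0.07 and 0.11. For a view by array, each probe set was centred on its mean over the 5 arrays. The median of the mesenchymal members was then 0.11, -0.01 and 0.10 on the mutant arrays and -0.07 and -0.15 on the wt arrays. The mean of the epithelial members was -0.12, 0.11 and -0.04 on the mutant arrays and 0.05 and 0.01 on the wt arrays. The wt arrays were thus the lowest for the mesenchymal members, while the epithelial members varied as much within the mutant group as between groups. The epithelial minus mesenchymal value was -0.23, 0.11 and -0.13 on the mutant arrays and 0.11 and 0.16 on the wt arrays, with mutant replicate 2 at the level of wt replicate 1.

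Genes that act with the members were examined through 8 further lists, each gene on its brightest probe set. In limma 0 genes of these lists had an adjusted p under 0.05, in a comparison where 0.234% of all genes were called lower and 0.267% higher. At an unadjusted p under 0.05, 6.87% of all genes were lower and 8.84% higher, and the counts of each list are to be read against these shares.

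The epithelial list held junction, polarity and splicing genes, of which 27 were measured. At the unadjusted threshold 2 were lower and 2 higher, the median log2 difference was 0.06, and 19 means were higher. ESRP1, an epithelial splicing regulator, had means of 9.32 with mutant and 9.64 with wt miR-122, which differed by 0.32 (adjusted p = 0.198 from limma). OCLN, the tight junction protein occludin, gave 0.27 (adjusted p = 0.298). The desmosomal genes DSP and DSC2 had lower means instead, with log2 differences of -0.24 (adjusted p = 0.232) and -0.44 (adjusted p = 0.308). The list thus held genes at the unadjusted threshold in both directions.

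The mesenchymal list was different, with 17 of 22 measured means lower and a median of -0.17, close to that of the mesenchymal members. At the unadjusted threshold 9 were lower and 0 higher. MMP2, a gelatinase, read 10.34, 10.61 and 10.80 on the mutant arrays and 9.96 on both wt arrays. Its log2 difference was -0.63 (SE 0.128, adjusted p = 0.0976 from limma). CALD1, the actin-binding caldesmon, gave -0.34 (adjusted p = 0.171). The higher means with the smallest adjusted p belonged to the surface proteins NT5E (0.23, adjusted p = 0.48) and ENG (0.15, adjusted p = 0.56), whose groups overlapped.

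TGF-beta signaling is a classical inducer of EMT, and 12 of 16 means of its list were lower, with a median of -0.08. At the unadjusted threshold 3 were lower and 1 higher. The ligand TGFB2 read 7.44, 7.37 and 8.06 on the mutant arrays and 6.73 and 6.57 on the wt arrays. This was the largest difference of any pathway list, at -0.97 (SE 0.194, 95% interval -1.42 to -0.53, adjusted p = 0.0917 from limma), and like CDH11 it was highest on mutant replicate 3. The ligand TGFB1 gave a log2 difference of -0.45 (adjusted p = 0.134). The transducer SMAD4 and the corepressor TGIF1 had higher means, by 0.10 (adjusted p = 0.66) and 0.18 (adjusted p = 0.307).

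Among 15 other cadherins, 5 were higher and 2 lower at the unadjusted threshold, and the median was 0.07. Only 3 of them had a mean level above the median of all probe sets. CDH10, a type II cadherin of brain, read 8.34, 8.65 and 8.21 on the mutant arrays and 7.85 and 7.76 on the wt arrays, or -0.60 on the log2 scale (SE 0.126, adjusted p = 0.105 from limma). CDH3, the placental P-cadherin, was bright and gave -0.28 (adjusted p = 0.246). The 5 higher ones were CDH6, CDH9, CDH15, CDH16 and CDH17. CDH6, which was named after its values were seen, was bright and gave 0.21 (adjusted p = 0.279), from a mutant mean of 10.14. The others were dim, with mutant means of 2.83 for CDH9 (difference 0.28) and 4.98 for CDH15 (difference 0.23).

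Of the catenins and other junction partners, 3 of 13 were lower and 0 higher at the unadjusted threshold, with a median of -0.01. CTNNB1, which encodes beta-catenin, gave -0.19 (adjusted p = 0.303 from limma) and JUP, plakoglobin, -0.23 (adjusted p = 0.293). CTNNA2 and CTNNA3 had higher means, with log2 differences of 0.42 (adjusted p = 0.437) and 0.13 (adjusted p = 0.594). Of the partners and regulators of the SNAI and ZEB factors, 1 of 21 was lower and 2 were higher, with a median of 0.05. LOXL2, a lysyl oxidase known to stabilize SNAI1, gave -0.34 (adjusted p = 0.157), and the corepressor HDAC1 gave 0.27 (adjusted p = 0.214). The ubiquitin ligase subunit FBXW7 and the deubiquitinase USP9X were at -0.13 (adjusted p = 0.59) and 0.20 (adjusted p = 0.293).

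Of 9 genes of EPCAM cleavage and its partners, 1 was lower and 1 higher at the unadjusted threshold, with a median of 0.01. The tetraspanin CD9, which binds EPCAM, gave 0.26 (adjusted p = 0.194 from limma), and FHL2, a partner of its cleaved tail, gave -0.36 (adjusted p = 0.183). PSENEN, a gamma-secretase subunit, was at -0.25 (adjusted p = 0.511) and the tetraspanin TSPAN8 at 0.11 (adjusted p = 0.6). The intermediate filaments related to VIM had a median of 0.22 over 9 genes, with 4 higher and 1 lower at the unadjusted threshold. The neuronal filaments INA and NEFL had higher means, with log2 differences of 0.32 (adjusted p = 0.121) and 0.33 (adjusted p = 0.224). NES, the nestin of neural progenitors, had a lower mean like VIM, at -0.26 (adjusted p = 0.209), and SYNM was at -0.15 (adjusted p = 0.548).

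Markers of the cell types that these cultures could hold also differed between the groups. Of 15 markers of foreskin fibroblasts and other mesenchymal cells, 12 had lower means in wt miR-122-expressing cells, 10 were lower and 0 higher at the unadjusted threshold, and none passed the adjusted one. Over all genes 41.6% of means were lower, and at the unadjusted threshold 6.87% were lower and 8.84% higher. The counts of each marker list are to be read against these shares. Their median log2 difference was -0.41. The mean log2 value of these markers was 9.07 to 9.40 on the mutant arrays and 8.72 to 8.98 on the wt arrays. It was highest on mutant replicate 3, as were CDH11, SNAI2, ZEB2 and the brightest probe set of ZEB1. CDH2 and VIM were instead highest on mutant replicate 1, where the marker mean was 9.07. On these arrays 14 of the 15 were above the median level of all probe sets. COL1A1 gave -0.60 (adjusted p = 0.0711 from limma) and PDGFRB -0.56 (adjusted p = 0.0521), whereas THY1 and FAP had higher means, by 0.23 (adjusted p = 0.439) and 0.20 (adjusted p = 0.496). The groups overlapped for THY1 and FAP, and FAP was dim, above 20.5% of probe sets.

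The marker lists were chosen with earlier results of these data known. The paper had reported NANOG and SOX2 among the genes upregulated on these arrays. Of 11 markers of undifferentiated hESC, all had higher means, and DNMT3B, FGF4 and UTF1 rose at an adjusted p under 0.05 from limma. Over all genes 0.267% were called higher and 0.234% lower by this rule. The mean value of the markers was 8.41 to 8.61 on the mutant arrays and 8.96 to 9.03 on the wt arrays, and all 11 were above the median level of all probe sets. The log2 differences of DNMT3B, FGF4 and UTF1 were 0.72 (adjusted p = 0.0333), 0.56 (adjusted p = 0.0427) and 0.75 (adjusted p = 0.0424). The groups overlapped for CDH1 and EPCAM, which undifferentiated hESC also express. Of 11 markers of trophoblast and amnion, which are epithelial tissues, all had lower means, with a median of -0.77. At the unadjusted threshold 6 were lower and 0 higher, where 6.87% of all genes were lower and 8.84% higher. HAND1 (-0.91), HSD3B1 (-1.56), VTCN1 (-0.96) and GABRP (-0.85) fell, with adjusted p of 0.0228 to 0.0424 in limma. The list was uneven, since the groups overlapped for GATA3 (-0.18), GATA2 (-0.13), TFAP2A (-0.08), CYP19A1 (-0.13) and PGF (-0.04). The mean value of the 11 markers was 8.35 to 8.59 on the mutant arrays and 7.78 to 7.92 on the wt arrays, and 10 of the 11 were above the median level. The 8 markers of neural crest and neuroectoderm had a median of 0.06, with 2 higher and 0 lower at the unadjusted threshold, a mean value of 6.09 to 6.25 on the mutant and 6.19 to 6.38 on the wt arrays, and 3 above the median level. NGFR, the low-affinity neurotrophin receptor, gave 0.81 (adjusted p = 0.0904 from limma) and FOXD3 0.30 (adjusted p = 0.135). Both were dim, above 33.6% and 15.6% of probe sets. MSX1 and TFAP2B, both crest factors, were above the median level, and their groups overlapped. They gave -0.35 (adjusted p = 0.533) and -0.32 (adjusted p = 0.683). PAX6, the brightest of the list, gave 0.18 (adjusted p = 0.664), also with overlap. The part of these cell types in the differences of the EMT genes was not tested.

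The genes whose pattern over the 5 arrays was nearest to that of CDH11 were CXCL6, a chemokine, LZTS1 and GLIPR1, with Euclidean distances of 0.134, 0.162 and 0.197 between centred log2 values, where the median distance over all genes was 1.05. In each of them both wt arrays lay below the mutant range, at 6.65 to 6.78 against 7.15 to 8.08 for GLIPR1. This followed from choosing genes so near to CDH11, whose groups were apart by a gap of 0.368. CXCL6 was dim, with a highest value of 4.35. For EPCAM, whose values spanned only 0.25, the nearest were LZTS3, GCN1 and LMO4, with distances of 0.011 to 0.0237. These are descriptions of 5 arrays, too few for a correlation.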

How the data were processed

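Total RNA of HES2 cultures was measured on 5 Affymetrix GeneChip human arrays. The authors deposited log2 values, 1 column per array, which their methods describe as normalized with RMA. Other settings are not given in the sources used here. They were used as they are. The methods call the replicates independent experiments.

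Of 22277 probe sets, 62 controls were left out. The linear model of limma 3.58.1 (R 4.3.3) held group alone, with moderated variances and Benjamini-Hochberg adjustment over 22215 probe sets (threshold 0.05, 3 residual and 4.87 prior degrees of freedom, median SE 0.0878). GEO's platform annotation named 1 gene for 19064 probe sets, several for 1043 and none for 2108, and symbols were updated by Entrez ID for 19052. All member probe sets are named. Of each list, marker lists included, the text names the genes past the threshold and those with the smallest p in either direction. CDH6 and some markers were named after their values were seen. The fit was tested on simulated data. Figures were drawn with matplotlib 3.10.9.

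The members, lists and tests were chosen with earlier results of these data known. Other settings were a replicate block, array weights, median centring, a robust prior with an intensity trend, the t-test named in the methods, omission of dim probe sets, leaving out probe sets ending in _s_at or _x_at, leaving out each array, and the mean of a gene's probe sets.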

Additional observations from a re-analysis of the deposited data

How the results depend on the processing

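The signs of the member differences held under the alternatives, except those of CDH1: with single arrays left out it ranged from -0.07 to 0.05 on 201131_s_at and from -0.02 to 0.14 on 201130_s_at. For many of these values the sign was fixed in advance. The trend and robust prior, the t-test and the omission of other probe sets leave the difference of a probe set as it is. Where the groups did not overlap, leaving out 1 array could not reverse the sign either. Of 181 values over the 15 member probe sets, 170 kept their side of the threshold and their sign, 9 passed the threshold and 2 changed sign. For the methods' t-test unadjusted, the p held against the threshold was not adjusted, unlike that of the main fit, and 3 of the 9 came from it. Member probe sets called lower numbered 2 with the intensity trend and robust prior (SNAI2 and ZEB2) and 3 by the methods' t-test unadjusted (VIM, SNAI2 and ZEB2). Over all probe sets the calls, 85 with group alone, were 320 (183 lower) with the trend and robust prior, 159 on probe sets at or above the median level, 0 to 3 over the fits without an array, and 2424 (873 lower) unadjusted and 0 adjusted by the methods' t-test. The median of the mesenchymal members was -0.08 over the 5 genes left without probe sets ending in _s_at or _x_at, where no epithelial member was left. In that setting CDH11 (-0.72), VIM (-0.19) and ZEB2 (-0.52) dropped out, and the differences of the genes left were unchanged. The causes of the differences between the groups were not tested. With a replicate block, in which mutant replicate 3 has no partner and adds nothing to the difference, 895 probe sets (531 lower) and 4 member probe sets were called, both of CDH11 (-0.47 and -0.43), SNAI2 (-0.41) and ZEB2 (-0.48), with 1 residual degree of freedom. The labels and methods state no pairing. Deviations from the group means correlated at 0.147 and 0.123 for same-numbered arrays, and at -0.123 and -0.147 for the crossed ones, which with 2 wt arrays follows from the first pair of values.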
